A study of Rattus norvegicus with 939 samples.

Results

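Itraconazole, ketoconazole and sulconazole are azole antifungals, and the arrays described here are those of primary rat hepatocytes exposed to each of them. The arrays were chosen by the compound label alone, which gave 18 treated arrays of 939 in the series, 6 for each drug. Every treated array was set against the vehicle arrays whose description names its compound, 22 vehicle arrays in all.

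In the series, hepatocytes in culture received a toxicant in the medium and were harvested after 0.67 or 1 d, and poly(A) RNA was read on Affymetrix arrays. Itraconazole was given at 10 uM (3 arrays at 0.67 d and 3 at 1 d) and compared with 22 vehicle arrays, ketoconazole at 90 uM (3 and 3) with 16 vehicle arrays, and sulconazole at 40 uM (3 and 3) with 6 vehicle arrays. All of these arrays, treated and vehicle, carry DMSO as the vehicle label. The labels give no strain, no sex and no age. They do not say whether the replicates of a drug came from separate cultures, so the p-values measure the spread between arrays. The titles of the vehicle arrays carry a date, and each date has an array at both times. The 22, 16 and 6 vehicle arrays come from 11, 8 and 3 dates. The fits count arrays of the same date as separate, so the p-values do not account for shared dates. At each time the labels give 2 of the 3 itraconazole arrays the replicate number 1 and the other the number 2. The arrays that share a number are called 1a and 1b here and counted as separate arrays, and leaving out number 1 leaves 1 itraconazole array at each time. Itraconazole shared 16 of its vehicle arrays with ketoconazole and the other 6 with sulconazole, while ketoconazole and sulconazole shared 0. Since the 3 drugs were given at different doses, their changes are set side by side below and no drug was tested against another.

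Azoles bind through a ring nitrogen to the haem iron of cytochrome P450 enzymes. The target in fungi is lanosterol 14-alpha-demethylase, the product of CYP51, and mammals have the same enzyme in the cholesterol pathway. When sterols in the endoplasmic reticulum fall, SREBP transcription factors are released and raise the genes of cholesterol synthesis and uptake; when they are plentiful, INSIG proteins hold SREBP back. Azoles are also known as ligands or inhibitors of other hepatic P450 enzymes and of the xenobiotic receptors that regulate them. Itraconazole is a triazole with a long side chain, whereas ketoconazole and sulconazole are imidazoles. Itraconazole and ketoconazole share a dioxolane ring and a piperazine-containing side chain, and sulconazole is a smaller molecule with a thioether link. Clotrimazole at 60 uM, another imidazole of the series with its own 8 vehicle arrays, is quoted beside the others as a description.

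The cultures were hepatocyte-rich. In the 22 vehicle arrays the median hepatocyte marker lay at percentile 99.5 of all genes, while the median Kupffer cell marker lay at 34.1, with 30.5 for endothelial, 31.1 for stellate, 15.3 for cholangiocyte and 20.6 for lymphoid markers. The vehicle arrays were not uniform in Kupffer content. The mean log2 level of the 8 measured Kupffer markers ran from 7.40 to 8.31 in the 6 vehicle arrays used for sulconazole but from 6.18 to 7.61 in the 16 used for ketoconazole. The treated arrays themselves ran from 6.35 to 6.94 with itraconazole, from 6.23 to 6.56 with ketoconazole and from 7.17 to 7.91 with sulconazole.

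The ketoconazole arrays did not respond equally. Over the genes called for ketoconazole, the median size of the log2 change was 1.09, 1.05 and 0.472 in the arrays of replicates 1, 2 and 3 at 0.67 d, and 1.37, 0.696 and 0.485 at 1 d. The corresponding medians over each drug's own called genes ran from 0.744 to 1.01 for itraconazole and from 0.75 to 1.09 for sulconazole. These genes were called from the same arrays, so an array with large changes also weighs in the choice of genes. With both replicate 1 arrays left out 1315 genes were called for ketoconazole, against 2120 with all arrays, and with both replicate 3 arrays left out 2951. Values without replicate 1 are given beside the ketoconazole results described at length that move with it. In addition, 5 of the 6 ketoconazole arrays were hybridized on 1 day, with 4 of their 16 vehicle arrays, and within that day alone 39 genes were called. Within the day Fdft1 changed by 0.86 (adjusted p = 0.0114) and Ddit3 by 2.41 (adjusted p = 0.0199), against 0.88 and 2.43 with all arrays, and neither was called. Of 18 cholesterol synthesis enzymes 1 was called within the day, against 8 with all arrays (medians 0.645 and 0.543). Of 18 PPARa targets 0 were called (median -0.2, against -0.363 with all arrays). Of 12 cytokine and NF-kB genes 0 were called (median -0.262, against -0.354).

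A gene was called when its limma p-value, adjusted by Benjamini-Hochberg over 14218 genes, was at most 0.01 and its change was at least 1.5-fold. Itraconazole changed 1835 genes (12.9% of those tested), 773 higher (5.44%) and 1062 lower (7.47%). Ketoconazole changed 2120 genes (14.9%), 769 higher (5.41%) and 1351 lower (9.5%). Sulconazole changed 1882 genes (13.2%), 956 higher (6.72%) and 926 lower (6.51%). Among 128 treatments of the series ordered by the number of called genes, ketoconazole ranked 29, sulconazole 35 and itraconazole 39, and clotrimazole, with 1519 called genes, ranked 48. The median log2 change over all genes was 0.026, 0.054 and -0.006 for itraconazole, ketoconazole and sulconazole. With itraconazole all treated arrays lay above every vehicle array in 455 of the called genes and below in 548. With ketoconazole these counts were 264 and 542, and with sulconazole 850 and 717. The shares of all genes called higher and lower are the background for the list counts below.

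**Figure D1:**
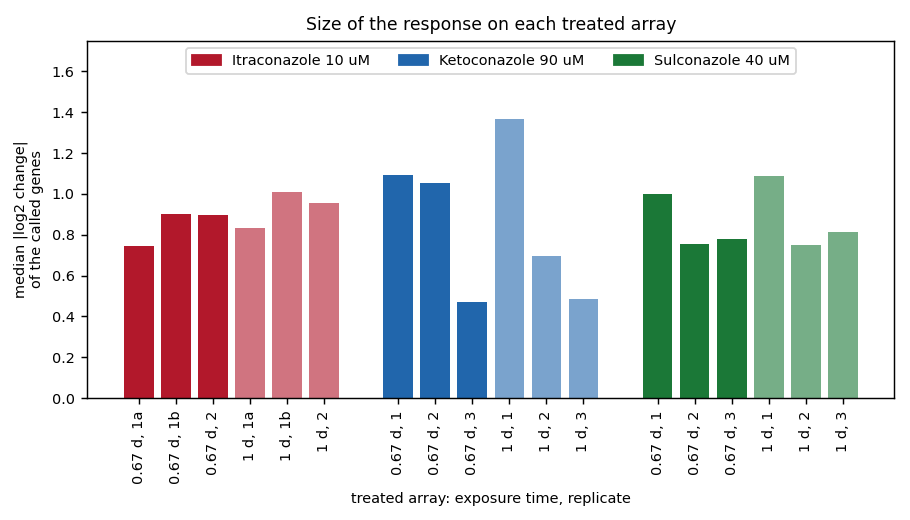
The median size of the log2 change over each drug's called genes (vertical axis) is drawn for each of the 18 treated arrays, with darker bars for 0.67 d and lighter bars for 1 d. The ketoconazole bars range from 0.472 to 1.37, wider than those of itraconazole or sulconazole. Each drug's genes were called from these same arrays.

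Sulconazole and ketoconazole raised enzymes of cholesterol synthesis, and itraconazole lowered some of them. Of 18 measured enzymes of the pathway, sulconazole raised 12 and lowered 0, ketoconazole raised 8 and lowered 0, and itraconazole raised 0 and lowered 4. The median log2 change of the 18 was -0.26 with itraconazole, 0.54 with ketoconazole and 0.81 with sulconazole, beside 0.81 with clotrimazole. In order of their place among 128 treatments, the medians of sulconazole, ketoconazole and itraconazole ranked 24, 38 and 121. The mean level of the 18 enzymes ran from 9.12 to 9.68 over the sulconazole arrays against 8.62 to 8.73 in their vehicle arrays, and from 8.23 to 8.59 over the itraconazole arrays against 8.62 to 9.03. Neither pair of ranges overlapped.

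Cyp51, the azole target itself, read 11.03, 11.59 and 11.62 log2 units in the sulconazole arrays at 0.67 d and 11.25, 11.60 and 11.72 at 1 d, while the 6 vehicle arrays ran from 10.52 to 10.77 with a median of 10.62. All 6 treated arrays lay above every vehicle array, and the gene rose 1.79-fold (log2 change 0.84, SE 0.113, adjusted p = 8.71e-05). With ketoconazole Cyp51 read 11.20, 11.13 and 11.45 at 0.67 d and 11.04, 11.38 and 11.23 at 1 d, against 10.38 to 11.06 (median 10.78) in vehicle arrays. That change of 0.45 (SE 0.0855, adjusted p = 0.000163) passed the p bound but not the 1.5-fold bound, as did the change of -0.41 with itraconazole (SE 0.0904, adjusted p = 0.000366), whose arrays read 9.95 to 10.55 against a vehicle median of 10.77.

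Early steps of the pathway were called under all 3 drugs. Acat2, which makes acetoacetyl-CoA at the start of the pathway, rose 2.88-fold with sulconazole (log2 change 1.53, SE 0.156, adjusted p = 1.1e-05) and 1.98-fold with ketoconazole (0.99, SE 0.155, adjusted p = 2.23e-05). With itraconazole it fell by 0.80 on the log2 scale (SE 0.129, adjusted p = 6.99e-06). Idi1, the isopentenyl diphosphate isomerase, rose with sulconazole (0.78) and ketoconazole (0.84) and fell by 0.85 with itraconazole, where the arrays read 8.74, 8.66 and 9.01 at 0.67 d and 8.91, 8.58 and 8.94 at 1 d against 9.21 to 10.21 in 22 vehicle arrays. These 6 arrays lay below every vehicle array, and among 128 treatments the change ranked 126. The itraconazole call on Acat2 was lost without the arrays 1a and 1b (-0.62).

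Further along the pathway Fdps, which makes farnesyl diphosphate, rose 2.19-fold with sulconazole and 1.86-fold with ketoconazole, with all 6 arrays of each drug above their vehicle arrays, and changed by 0.14 with itraconazole (adjusted p = 0.0696). Fdft1, squalene synthase, rose with sulconazole (0.85) and ketoconazole (0.88), and with itraconazole was lower by less than the fold bound (-0.51, adjusted p = 4.95e-06). Sqle, squalene epoxidase, rose 1.72-fold with sulconazole and 1.53-fold with ketoconazole. The ketoconazole call on Sqle was lost in 2 of 9 leave-out fits, in which the change was as low as 0.53. Lss, which closes the lanosterol ring that Cyp51 demethylates, rose with sulconazole (1.02), with changes of 0.19 for ketoconazole and 0.01 for itraconazole.

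Of the enzymes that act after Cyp51, Hsd17b7, a sterol 3-keto reductase, had the largest rises of the pathway. It read 8.40, 8.01 and 8.47 at 0.67 d and 8.09, 7.95 and 8.35 at 1 d with sulconazole, against 5.95 to 6.92 in vehicle arrays, a 3.14-fold rise (log2 change 1.65, SE 0.149, adjusted p = 4.58e-06). With ketoconazole it rose 2.47-fold (1.31, SE 0.117, adjusted p = 5.38e-08), and with itraconazole its change was -0.23 (adjusted p = 0.158). Msmo1, the C4-methyl sterol oxidase, rose 2.58-fold with sulconazole and 1.78-fold with ketoconazole. Its itraconazole change, 0.53, was under the fold bound, which makes Msmo1 the enzyme of the list with the most positive itraconazole value. Itraconazole lowered 2 late enzymes. Dhcr7, which completes cholesterol, fell 2.81-fold (-1.49, SE 0.113, adjusted p = 8.75e-12), and Nsdhl, a C4 decarboxylase, fell 2.18-fold (-1.12, SE 0.0617, adjusted p = 1.44e-14). For both genes all 6 itraconazole arrays lay below all 22 vehicle arrays, while Dhcr7 changed by -0.30 with ketoconazole and -0.03 with sulconazole, neither called. Nsdhl changed by -0.55 with ketoconazole and -0.58 with sulconazole, also not called, although leaving out arrays brought the call in 4 of 9 fits with ketoconazole (as low as -0.78) and in 3 of 15 with sulconazole (as low as -0.80). Sc5d and Pmvk rose by 1.00 and 0.69 with sulconazole against its own vehicle arrays. Both calls were lost (0.54 and 0.46) when all vehicle arrays of the first campaign served as controls. That campaign, a grouping made here, holds every treated array of each drug. Its vehicle arrays include those named only for other compounds.

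**Figure D2:**
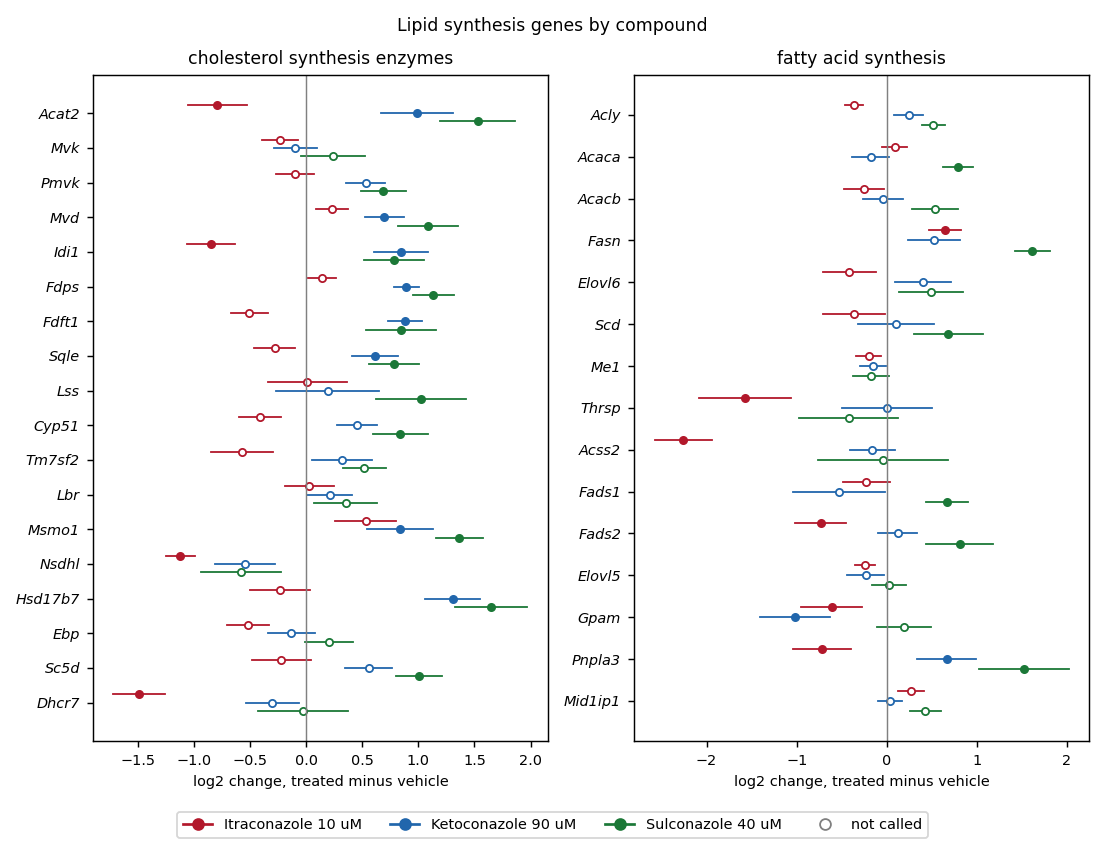
Log2 change, treated minus vehicle (horizontal axis), of each cholesterol (left) and fatty acid (right) synthesis gene with its 95% interval, filled where called and open where not. Sulconazole and ketoconazole lie right of 0 for most cholesterol enzymes, with medians of 0.81 and 0.54, and itraconazole left of it for most, with a median of -0.26.

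The promoters of the gene with the largest rise in the pathway and of its feedback regulator Insig1 are shown because they hold a CCAAT box, the NF-Y element that commonly accompanies SREBP sites. Both are RefSeq sequences of assembly GRCr8, from 250 bases before to 50 after the start of the gene and written along the gene's strand, Hsd17b7 at chr13:84722705-84723004 (minus strand) and Insig1 at chr4:8057720-8058019 (minus strand). Capitals mark CCAAT read on the opposite strand as ATTGG, at positions -176 to -172, -86 to -82 and -25 to -21 from the start of Hsd17b7 and at -193 to -189 from that of Insig1.
Hsd17b7: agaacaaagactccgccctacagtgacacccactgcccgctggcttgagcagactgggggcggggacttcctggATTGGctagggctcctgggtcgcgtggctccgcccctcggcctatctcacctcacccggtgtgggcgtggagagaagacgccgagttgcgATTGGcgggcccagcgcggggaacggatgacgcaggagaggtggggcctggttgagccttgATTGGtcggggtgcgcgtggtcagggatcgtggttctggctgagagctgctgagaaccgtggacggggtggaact
Insig1: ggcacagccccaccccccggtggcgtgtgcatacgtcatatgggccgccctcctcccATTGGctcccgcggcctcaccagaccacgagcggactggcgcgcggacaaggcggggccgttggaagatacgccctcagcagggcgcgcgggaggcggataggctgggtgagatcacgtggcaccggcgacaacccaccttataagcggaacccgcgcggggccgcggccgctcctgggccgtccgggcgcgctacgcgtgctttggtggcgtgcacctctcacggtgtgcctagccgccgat
CCAAT on either strand was found in 12 of the 15 promoters available for the 18 enzymes (80.0%), beside 37.5% of 33469 rat promoters of the same length. The sterol regulatory element core TCACNCCAC was found in 0 of the 15 and in 1.12% of all promoters, and no match says only that these letters are not in this window.

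Genes that sense, store and export sterol moved less uniformly. Insig1, the retention protein whose own transcription follows SREBP, rose with all 3 drugs, 1.81-fold with itraconazole (log2 change 0.86, SE 0.16, adjusted p = 4.93e-05), 2.33-fold with ketoconazole (1.22, SE 0.16, adjusted p = 2.77e-06) and 3.23-fold with sulconazole (1.69, SE 0.151, adjusted p = 4.4e-06). Under itraconazole Insig1 thus rose while Idi1 and Acat2 fell. Insig2, its relative, fell with ketoconazole (-0.69) and sulconazole (-0.61), but the ketoconazole fall was -0.35 and not called without replicate 1, and the sulconazole call was lost in 5 of 15 leave-out fits (-0.70 to -0.47). Srebf1, which encodes the SREBP of fatty acid genes, rose 1.94-fold with sulconazole (0.96, SE 0.0902, adjusted p = 6.13e-06), with 0.01 for itraconazole and -0.07 for ketoconazole. Against all vehicle arrays of the first campaign the sulconazole change of Srebf1 was 0.57 and not called. Srebf2, the SREBP of cholesterol genes, changed by -0.28, -0.56 and -0.19 with itraconazole, ketoconazole and sulconazole and was called for none of them with all arrays. The ketoconazole value of Srebf2 ran from -0.81 to -0.29 in the leave-out fits and was called in 5 of 9.

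**Figure D3:**
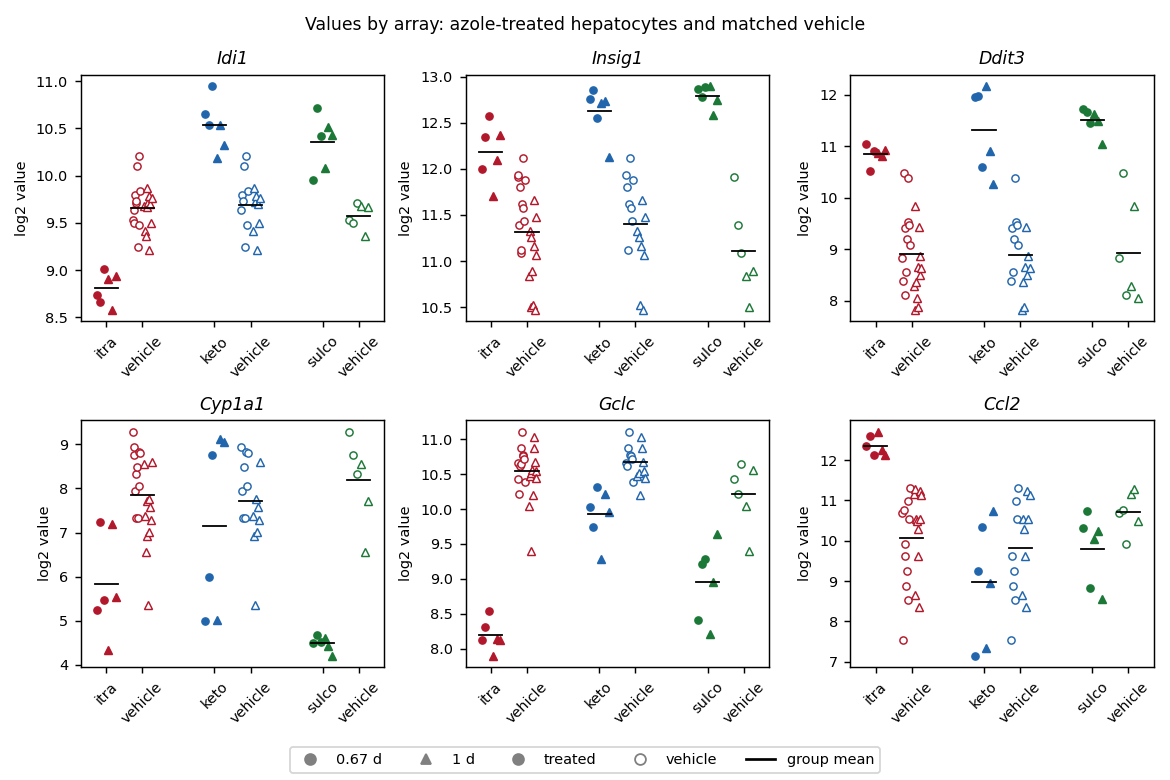
Log2 values (vertical axis) of 6 genes in every treated array (filled) and its vehicle arrays (open), circles for 0.67 d and triangles for 1 d, with a line at each group mean. The itraconazole arrays lie below all vehicle arrays in Idi1 and Gclc and above them in Ccl2, and the sulconazole arrays lie between 4.21 and 4.67 in Cyp1a1.

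Of 12 genes of sterol uptake, storage and efflux, itraconazole raised 2, ketoconazole 1 and sulconazole 1, and 0 were lowered. Over all genes 5.44%, 5.41% and 6.72% were higher with the drugs in that order. Soat1, which esterifies cholesterol for storage, read 5.01, 7.95 and 6.83 with itraconazole at 0.67 d and 7.93, 9.15 and 8.60 at 1 d, against 3.99 to 6.90 (median 5.12) in vehicle arrays. Array 1a at 0.67 d lay near the vehicle median and the 6.83 array within the vehicle range, and the other 4 were above it. The change was 5.67-fold (log2 2.50, SE 0.355, adjusted p = 8.93e-07), and 1.80 against the 6 vehicle arrays shared with sulconazole alone. Ketoconazole (0.32) and sulconazole (0.11) did not pass the test on Soat1. Abca1, the exporter of cholesterol to apolipoprotein A-I, rose with itraconazole (0.70) and ketoconazole (0.72), with 0.34 for sulconazole. When the median of its probe sets was used in place of the brightest, the ketoconazole value of Abca1 was -0.21 and not called. Nceh1, a neutral cholesterol ester hydrolase, rose 2.40-fold with sulconazole (1.26, SE 0.0896, adjusted p = 8.09e-07).

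Sulconazole raised and itraconazole lowered some genes of fatty acid synthesis. Of 15 genes sulconazole raised 6 and lowered 0, ketoconazole raised 1 and lowered 1, and itraconazole raised 1 and lowered 5, with median log2 changes of 0.52, 0.00 and -0.36. In leave-out fits sulconazole raised 3 to 8. Fasn, fatty acid synthase, rose 3.07-fold with sulconazole (1.62, SE 0.0894, adjusted p = 2.2e-07) and 1.57-fold with itraconazole (0.65, SE 0.0874, adjusted p = 3.89e-07), the only gene of the list that itraconazole raised. Acaca, the acetyl-CoA carboxylase that precedes it, rose with sulconazole (log2 change 0.79), beside 0.09 for itraconazole and -0.18 for ketoconazole. Fads2, the delta-6 desaturase, rose with sulconazole (0.81) and fell by 0.74 with itraconazole. The sulconazole call on Fads2 was lost in 2 of 15 leave-out fits, and the itraconazole value was -0.49 and not called against the 6 vehicle arrays shared with sulconazole. Pnpla3, a lipid droplet protein induced by SREBP-1c, rose with sulconazole (1.52) and ketoconazole (0.67) and fell by 0.72 with itraconazole. The Pnpla3 call was lost in 3 of 9 leave-out fits with ketoconazole (0.51 to 0.89) and in 1 of 8 with itraconazole (-0.97 to -0.60).

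Itraconazole also lowered genes that supply the pathway. Acss2, which makes cytosolic acetyl-CoA from acetate, read 6.77, 5.50 and 6.07 at 0.67 d and 6.64, 5.80 and 6.49 at 1 d, against 7.81 to 8.97 in vehicle arrays, a 4.80-fold fall (log2 change -2.26, SE 0.155, adjusted p = 9.7e-13). All 6 itraconazole arrays lay below the 22 vehicle arrays, while Acss2 changed by -0.16 with ketoconazole and -0.04 with sulconazole. Thrsp, a lipogenic regulator, fell 2.98-fold with itraconazole. Gpam, the acyltransferase of glycerol-3-phosphate, fell with ketoconazole (-1.02) and itraconazole (-0.61), and its ketoconazole value without replicate 1 was -0.62. The itraconazole call on Gpam was lost in 2 of 8 leave-out fits (-0.73 to -0.37).

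The aryl hydrocarbon receptor, which binds planar aromatic ligands and raises Cyp1a genes, had some targets that fell under sulconazole and itraconazole. Of 7 AhR targets sulconazole lowered 3, itraconazole lowered 3 and ketoconazole raised 1. The list as a whole did not fall. Its median log2 change was -0.04 with sulconazole, 0.02 with itraconazole and 0.14 with ketoconazole, beside -0.01, 0.03 and 0.05 over all genes. In leave-out fits the median ran from -0.3 to 0.02 with sulconazole and from -0.13 to 0.09 with itraconazole. Cyp1a1 read 4.50, 4.67 and 4.52 at 0.67 d and 4.60, 4.42 and 4.21 at 1 d with sulconazole, against 6.57 to 9.29 (median 8.43) in vehicle arrays. The fall was 13.1-fold (log2 change -3.71, SE 0.299, adjusted p = 2.05e-06), the lowest value of Cyp1a1 among 128 treatments, whereas clotrimazole had 3.73. The sulconazole readings lay below every array median of the series (5.41 to 5.73), so the size of the fall is uncertain near the floor. Itraconazole lowered Cyp1a1 4.04-fold (-2.02, SE 0.381, adjusted p = 6.05e-05), with 2 of 6 arrays below every vehicle array. With ketoconazole the arrays read 5.00, 5.99 and 8.76 at 0.67 d and 5.02, 9.12 and 9.06 at 1 d against 5.37 to 8.93, so that 2 arrays lay below and 2 above the vehicle range. The ketoconazole change of -0.57 was not called, and it was 0.51 without replicate 1.

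Cyp1a2 fell 2.79-fold with itraconazole (-1.48) and 2.14-fold with sulconazole (-1.10), beside -0.29 for ketoconazole. Nqo1, a quinone reductase that is a target of both AhR and NRF2, fell 2.85-fold with sulconazole (-1.51, SE 0.0895, adjusted p = 3.17e-07), the lowest of 128 treatments, and 1.71-fold with itraconazole (-0.77, SE 0.104, adjusted p = 4.05e-07). Tiparp, an AhR-induced ADP-ribosyltransferase, rose 2.00-fold with ketoconazole (1.00, SE 0.159, adjusted p = 2.59e-05) and was the gene of the list that ketoconazole raised. The xenobiotic response element core GCGTG was found in 4 of the 5 promoters available for the list, beside 29.7% of all promoters.

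Some constitutive liver P450 enzymes fell under each drug. Of 18 measured, itraconazole lowered 10, sulconazole lowered 8 and raised 1, and ketoconazole lowered 4, with 14 not called. In leave-out fits itraconazole lowered 6 to 11 and ketoconazole 2 to 5. Cyp2c12, a steroid hydroxylase outside the list of 18, fell 14.1-fold with itraconazole (-3.82, SE 0.477, adjusted p = 1.06e-07) and 8.41-fold with sulconazole (-3.07, SE 0.58, adjusted p = 0.00102). The ketoconazole arrays read 9.06, 8.71 and 5.35 at 0.67 d and 7.88, 8.51 and 4.71 at 1 d, so both replicate 3 arrays were low and the other 4 lay within the vehicle range of 6.47 to 10.17. Cyp2c11, the male-specific testosterone hydroxylase, fell 3.14-fold with itraconazole (-1.65) and 1.74-fold with sulconazole (-0.80), with 0.04 for ketoconazole. The sulconazole call on Cyp2c11 was lost in 10 of 15 leave-out fits, in which its change ran from -0.92 to -0.68. Cyp4f4, a fatty acid hydroxylase, fell with all 3 drugs, with log2 changes of -2.28 for itraconazole, -1.16 for ketoconazole and -1.66 for sulconazole. Cyp4v3 fell 2.49-fold with ketoconazole (-1.32), the lowest value of 128 treatments, although it was -0.87 without replicate 1.

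Targets of PXR and CAR, the receptors that induce drug metabolism, had median log2 changes of -0.87, 0.03 and -0.15 with itraconazole, ketoconazole and sulconazole over 14 genes. Itraconazole raised 1 and lowered 5, ketoconazole raised 1 and lowered 2, and sulconazole raised 1 and lowered 3. In leave-out fits the number lowered was 3 to 4 with itraconazole, 0 to 2 with ketoconazole and 3 to 5 with sulconazole. Abcb1a, which encodes the P-glycoprotein efflux pump, was the gene each drug raised. It read 11.19, 11.02 and 11.17 at 0.67 d and 11.03, 10.45 and 10.90 at 1 d with sulconazole, against 7.98 to 8.88 in vehicle arrays, a 5.61-fold rise (2.49, SE 0.105, adjusted p = 8.9e-08). The rise was 3.71-fold with itraconazole (1.89, SE 0.0964, adjusted p = 3.16e-15) and 2.68-fold with ketoconazole (1.42, SE 0.129, adjusted p = 5.78e-08), and no treated array of the 18 overlapped its vehicle arrays.

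The P450 genes that mark PXR did not rise with the pump. Cyp3a23-3a1, the main PXR-inducible CYP3A of the rat, changed by 0.29 with ketoconazole and 0.26 with sulconazole, neither called, and fell by 1.01 with itraconazole (SE 0.317, adjusted p = 0.01). That call lay on the bound. It was lost in all 8 leave-out fits, the value was -0.19 against the 6 vehicle arrays shared with sulconazole, and only 1 of 6 itraconazole arrays lay below the vehicle range of 8.72 to 12.02. Cyp3a2 changed by -0.93, 0.36 and 0.13 with itraconazole, ketoconazole and sulconazole. Its sulconazole value was -1.06 when all vehicle arrays of the first campaign served as controls. Slco1a4, an organic anion uptake transporter, fell with itraconazole (-1.46) and sulconazole (-1.10), as did Cyp2c6v1 (-1.29 and -0.72). Ugt2b1, a glucuronosyltransferase, fell 3.59-fold with itraconazole, a call lost without replicate 2 (-1.51, adjusted p = 0.014).

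Some retinoid genes fell. Of 13 retinoic acid targets and retinoid enzymes itraconazole lowered 7, ketoconazole 3 and sulconazole 2, and 0 were raised. In leave-out fits sulconazole lowered 1 to 4. Dhrs3, a retinoic-acid-induced retinal reductase, fell with all 3 drugs, 3.02-fold with itraconazole (-1.59, SE 0.258, adjusted p = 6.87e-06), 5.24-fold with ketoconazole (-2.39, SE 0.333, adjusted p = 5.84e-06) and 3.48-fold with sulconazole (-1.80, SE 0.221, adjusted p = 4.13e-05). Aldh1a1, which oxidizes retinal and was counted above among the PXR and CAR targets and not among these 13, fell with all 3, with log2 changes of -3.60 for itraconazole, -1.99 for ketoconazole and -3.66 for sulconazole. The ketoconazole fall of Aldh1a1 was -1.30 and not called without replicate 1. Cyp26a1, the azole-sensitive P450 that degrades retinoic acid and is induced by it, fell 3.62-fold with itraconazole (-1.86, SE 0.418, adjusted p = 0.000494), a call lost without the arrays 1a and 1b (adjusted p = 0.046). With ketoconazole (-1.39, adjusted p = 0.0161) and sulconazole (-1.31, adjusted p = 0.0342) it did not pass the p bound. Tgm2 and Rarb, further retinoic acid targets, fell with itraconazole (-1.21 and -0.81) and ketoconazole (-1.53 and -1.15).

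PPARa, the fatty acid receptor of hepatocytes, drives fatty acid oxidation genes, and most of its targets that passed the test fell. Of 18 targets itraconazole lowered 11 and raised 2, ketoconazole lowered 5 and raised 2, and sulconazole lowered 6 and raised 2. Itraconazole lowered 7 without the arrays 1a and 1b, and 8 against the 6 vehicle arrays shared with sulconazole, where its median was -0.62. Ketoconazole lowered 2 without replicate 1 (median -0.27), and sulconazole lowered 9 against all vehicle arrays of the first campaign (median -0.59). With all arrays the itraconazole median of -0.88 was the lowest of 128 treatments, beside -0.36 for ketoconazole and -0.35 for sulconazole. Angptl4, a secreted inhibitor of lipoprotein lipase, read 6.20, 6.88 and 7.23 at 0.67 d and 6.57, 7.16 and 7.40 at 1 d with itraconazole, against 8.48 to 9.95 in vehicle arrays, a 5.02-fold fall (-2.33, SE 0.193, adjusted p = 4.99e-11). Sulconazole lowered it 3.64-fold (-1.86, SE 0.171, adjusted p = 5.18e-06). With ketoconazole Angptl4 read 5.52, 7.12 and 9.27 at 0.67 d and 5.72, 8.84 and 9.26 at 1 d, with the 3 lowest arrays below the vehicle range of 8.48 to 9.78, and its change of -1.49 became -0.49 and was not called without replicate 1.

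Cpt1a, which commits fatty acids to mitochondrial oxidation, fell with all 3 drugs, 1.88-fold with itraconazole, 2.08-fold with ketoconazole and 3.20-fold with sulconazole. Acadm, the medium-chain acyl-CoA dehydrogenase, fell by 0.84, 0.78 and 0.84 on the log2 scale, with all 6 arrays of each drug below their vehicle arrays. Without replicate 1 the Acadm change under ketoconazole was -0.58 and not called. Cyp4a3, a fatty acid omega-hydroxylase, fell with itraconazole (-1.70) and sulconazole (-1.61), and Cyp4a1 with itraconazole (-1.47). The Cyp4a1 call was lost without the arrays 1a and 1b (-1.15, adjusted p = 0.179) and against the 6 vehicle arrays shared with sulconazole (-0.51). Acot2, a mitochondrial thioesterase, went the other way, with rises of 1.66-fold, 2.12-fold and 3.13-fold for itraconazole, ketoconazole and sulconazole. The itraconazole call on Acot2 was lost without the arrays 1a and 1b (0.65, adjusted p = 0.112). Pdk4, the kinase that shuts off pyruvate dehydrogenase, rose 4.80-fold with ketoconazole (2.26, SE 0.304, adjusted p = 3.81e-06), beside 0.33 for itraconazole and 0.53 for sulconazole.

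Most of the amino acid and endoplasmic reticulum stress genes under ATF4 and CHOP rose with every drug. Of 24 genes itraconazole raised 19 and lowered 1, ketoconazole raised 18 and sulconazole raised 20, with 0 lowered by the imidazoles. The median log2 changes were 1.12, 1.08 and 1.32, beside 1.21 for clotrimazole. Ddit3, which encodes CHOP, read 11.04, 10.51 and 10.90 at 0.67 d and 10.87, 10.80 and 10.93 at 1 d with itraconazole, against 7.82 to 10.47 (median 8.74) in vehicle arrays. It rose 3.85-fold with itraconazole (1.95, SE 0.277, adjusted p = 9.66e-07), 5.39-fold with ketoconazole (2.43, SE 0.285, adjusted p = 8.33e-07) and 5.94-fold with sulconazole (2.57, SE 0.367, adjusted p = 0.000129). Ddit3 was called higher in 74 of the 128 treatments, so its rise was common in the series.

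The other members fell into biosynthetic genes, transporters and secreted factors. Asns, asparagine synthetase, rose with itraconazole (1.53), ketoconazole (1.05) and sulconazole (1.54), and the itraconazole and sulconazole values ranked 4 and 3 of 128. Mthfd2, the mitochondrial folate enzyme, rose about as much with each drug (2.06, 2.01 and 2.11). Chac1, which degrades glutathione, rose 4.95-fold, 3.02-fold and 4.32-fold with itraconazole, ketoconazole and sulconazole. Trib3, an inhibitory pseudokinase, rose 2.39-fold, 3.51-fold and 4.15-fold. Phgdh, the entry enzyme of serine synthesis, rose 2.38-fold with sulconazole (1.25, SE 0.0962, adjusted p = 1.39e-06), the highest of 128 treatments.

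Fgf21, a secreted hepatokine, read 9.02, 8.78 and 9.91 at 0.67 d and 9.89, 9.48 and 9.91 at 1 d with itraconazole, against 5.39 to 7.48 (median 5.94) in vehicle arrays. All 6 lay above the vehicle range, and the rise was 10.3-fold (3.37, SE 0.233, adjusted p = 1.29e-12), with 3.86-fold for ketoconazole (1.95) and 2.99-fold for sulconazole (1.58). Gdf15, the other hepatokine of the list, rose with itraconazole (1.70) and ketoconazole (2.05) and just missed the p bound with sulconazole (0.93, adjusted p = 0.0112). The ketoconazole value of Gdf15 was 1.33 without replicate 1. Ddit4, an inhibitor of mTORC1, was the gene that fell with itraconazole (-0.71), a call lost without the arrays 1a and 1b (-0.64) and against the 6 vehicle arrays shared with sulconazole (-0.42). Beside 5.44%, 5.41% and 6.72% of all genes, itraconazole, ketoconazole and sulconazole raised 6, 4 and 1 of 18 endoplasmic reticulum chaperones. In leave-out fits ketoconazole raised 1 to 4 of these chaperones. Hspa5, the chief of them, rose with itraconazole (0.70) and ketoconazole (0.60), and the call was lost in 4 of 9 leave-out fits with ketoconazole (0.48 to 0.78) and in 1 of 8 with itraconazole.

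**Figure D4:**
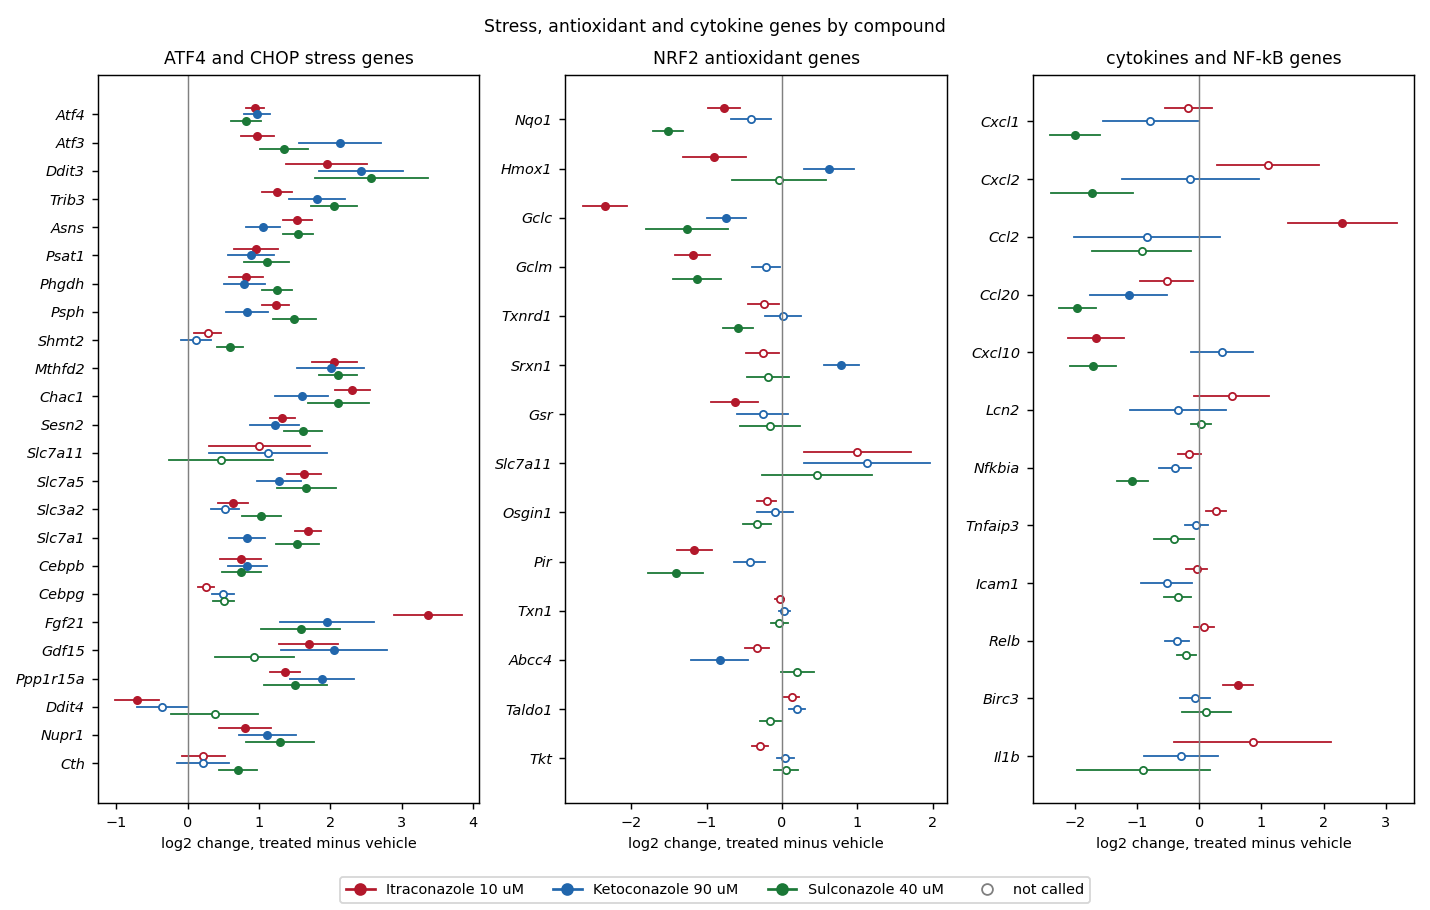
Log2 change, treated minus vehicle (horizontal axis), of the ATF4 and CHOP, NRF2 and cytokine genes with 95% intervals, filled where called. Most ATF4 and CHOP genes lie right of 0 with each drug, while Ccl2 lies at 2.30 with itraconazole and Cxcl1 at -1.998 with sulconazole.

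The promoters of Chac1 and Trib3 are shown because they belong to the 5 promoters, of 23 available for the ATF4 and CHOP list, that hold the composite element TGATGNAA (21.7%, beside 3.98% of all promoters). Both were searched on both strands, and both hold it on the strand opposite to the gene, as TTGCATCA at positions -167 to -160 from the start of Chac1 (chr3:126795881-126796180, plus strand) and as TTACATCA at -21 to -14 from that of Trib3 (chr3:161275484-161275783, minus strand). Capitals mark the match.
Chac1: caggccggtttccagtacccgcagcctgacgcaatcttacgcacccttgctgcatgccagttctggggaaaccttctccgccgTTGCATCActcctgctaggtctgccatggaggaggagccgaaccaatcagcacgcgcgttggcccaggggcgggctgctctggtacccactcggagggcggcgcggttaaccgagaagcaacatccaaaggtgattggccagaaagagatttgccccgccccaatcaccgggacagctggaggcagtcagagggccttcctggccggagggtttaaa
Trib3: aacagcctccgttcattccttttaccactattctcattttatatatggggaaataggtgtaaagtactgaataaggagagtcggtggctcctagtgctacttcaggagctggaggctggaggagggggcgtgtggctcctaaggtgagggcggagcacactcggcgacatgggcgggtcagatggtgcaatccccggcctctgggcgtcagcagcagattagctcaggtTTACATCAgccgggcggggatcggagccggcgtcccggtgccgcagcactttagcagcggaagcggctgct

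Some NRF2 target genes, which defend against oxidants, fell with itraconazole and sulconazole. Of 14 genes itraconazole lowered 6 and sulconazole 5 with 0 raised, while ketoconazole raised 2 and lowered 2, and 1 to 3 in each direction in leave-out fits. Gclc, the catalytic subunit of the enzyme that limits glutathione synthesis, read 8.13, 8.31 and 8.54 at 0.67 d and 7.90, 8.14 and 8.12 at 1 d with itraconazole, against 9.40 to 11.11 in vehicle arrays. No array overlapped, the fall was 5.11-fold (-2.35, SE 0.143, adjusted p = 8.49e-14) and it was the lowest of 128 treatments. Gclc fell 1.67-fold with ketoconazole (-0.74) and 2.40-fold with sulconazole (-1.26). Gclm, its regulatory subunit, fell with itraconazole (-1.19) and sulconazole (-1.12), which ranked 128 and 127 of the 128 treatments. Pir, an iron-binding NRF2 target, fell 2.24-fold and 2.65-fold with the same drugs. Srxn1, sulfiredoxin, rose 1.73-fold with ketoconazole (0.79), beside -0.25 for itraconazole and -0.18 for sulconazole. Hmox1, haem oxygenase, fell with itraconazole (-0.90) and rose with ketoconazole (0.62), a call lost in 3 of 9 leave-out fits (0.54 to 0.72). The itraconazole fall of Hmox1 was -0.60 and not called without the arrays 1a and 1b.

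Of 12 heat shock genes 1 was higher and 2 were lower with itraconazole, and 1 was higher and 1 lower with each imidazole. Over all genes 12.9%, 14.9% and 13.2% were called with itraconazole, ketoconazole and sulconazole. Zfand2a, an arsenite-inducible proteasome adaptor, was the gene that rose, 2.72-fold, 3.37-fold and 2.89-fold with itraconazole, ketoconazole and sulconazole, and it was called higher in 78 treatments. Hspa1a, the inducible HSP70, fell with itraconazole (-1.13) and sulconazole (-1.35), the lowest value of 128 treatments for sulconazole, and the itraconazole call was lost without the arrays 1a and 1b (-0.82). With ketoconazole Hspa1a read 10.46 and 9.88 in the replicate 3 arrays and 7.50 to 8.48 in the other 4, and its change was -0.10. Of 13 p53 targets itraconazole raised 3, ketoconazole 4 and sulconazole 5, and each lowered 1. In leave-out fits sulconazole raised 3 to 5. Mdm2, which ubiquitinates p53, rose 1.59-fold, 2.17-fold and 1.57-fold. The sulconazole change of Mdm2 was under the fold bound against all vehicle arrays of the first campaign (0.58). So was the itraconazole change without replicate 2 (0.57). Tp53inp1 rose with ketoconazole (2.13) and sulconazole (1.27) but changed by 0.11 with itraconazole, and its ketoconazole value without replicate 1 was 1.17. Cdkn1a, the p21 inhibitor, was called with none of the 3 (0.55, 0.28 and 0.13).

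Itraconazole raised the chemokine genes Ccl2 and Ccl3, and sulconazole lowered several others. Of 12 cytokine and NF-kB genes itraconazole raised 2 and lowered 1, ketoconazole lowered 1 and sulconazole lowered 5, with medians of 0.17, -0.35 and -0.91. The medians moved with the arrays used. Without replicate 1 the ketoconazole median was 0.006 with 0 called, and without the arrays 1a and 1b itraconazole raised 0. Against the 6 vehicle arrays shared with sulconazole the itraconazole median was -0.03. Against all vehicle arrays of the first campaign the sulconazole median was -0.37, with 5 lower and 1 higher. Ccl2, the monocyte attractant, read 12.34, 12.61 and 12.13 at 0.67 d and 12.71, 12.25 and 12.14 at 1 d with itraconazole, against 7.53 to 11.30 (median 10.50) in vehicle arrays. All 6 lay above the 22 vehicle arrays, and the 4.94-fold rise (2.30, SE 0.43, adjusted p = 5.05e-05) was the highest of 128 treatments, although the call was lost without the arrays 1a and 1b (2.07). Ccl2 changed by -0.84 with ketoconazole and -0.93 with sulconazole, neither called, and by 0.017 with ketoconazole without replicate 1. Ccl3, a macrophage chemokine outside the list of 12, rose 13.5-fold with itraconazole (3.75, SE 0.436, adjusted p = 3e-08), also the highest of 128, with 0.15 and 0.22 for ketoconazole and sulconazole.

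Sulconazole lowered another set of chemokines. Cxcl1, a neutrophil attractant, read 9.79, 9.73 and 8.98 at 0.67 d and 10.01, 9.66 and 8.97 at 1 d against 11.28 to 11.94 in vehicle arrays, a 4.00-fold fall (-1.998, SE 0.185, adjusted p = 5.53e-06). Cxcl2, its near relative, fell 3.30-fold (-1.72, SE 0.306, adjusted p = 0.000659), and Ccl20 fell 3.89-fold (-1.96, SE 0.138, adjusted p = 7.68e-07), the lowest of 128 treatments. Nfkbia, the NF-kB inhibitor and an early NF-kB target, fell 2.11-fold (-1.08). In each of these 4 genes all 6 sulconazole arrays lay below every vehicle array, as in 717 of the 926 genes that sulconazole lowered. With itraconazole Cxcl1 changed by -0.18, Cxcl2 by 1.11, Ccl20 by -0.53 and Nfkbia by -0.16, none called. Cxcl10, an interferon-induced chemokine, fell with both, 3.16-fold with itraconazole and 3.27-fold with sulconazole.

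The levels of Kupffer cell markers stand beside these results. Of the 8 measured, itraconazole raised 1 and lowered 1, ketoconazole raised 1 and lowered 2, and sulconazole raised 1 and lowered 1. Cd68, a lysosomal protein of macrophages, was the marker that rose with each drug (0.91, 0.82 and 1.10), and Lyz2, lysozyme, the marker that fell with each (-1.22, -0.70 and -1.09). The call on Cd68 was lost without replicate 1 of ketoconazole (0.75) and without the arrays 1a and 1b of itraconazole (0.95). The call on Lyz2 was lost in 1 of 9 leave-out fits with ketoconazole (-0.49) and in 2 of 15 with sulconazole (-1.02 and -0.97). The defining markers Adgre1 and Csf1r were not called with any drug. Adgre1 read 3.17 to 4.56 in the itraconazole arrays against 2.91 to 9.27 (median 3.28) in vehicle arrays, and 4.54 to 8.12 in the sulconazole arrays against 6.36 to 9.27 in theirs. Against all vehicle arrays of the first campaign sulconazole had 3.14 for Adgre1 and 1.61 for Csf1r, both called higher. Ccl6, a myeloid chemokine, rose 6.16-fold with itraconazole (2.62, SE 0.769, adjusted p = 0.00583) and was called higher in 1 of the 128 treatments, but its change was 0.57 and not called against the 6 vehicle arrays shared with sulconazole, in which it was high. It was also lost in 6 of 8 leave-out fits (2.06 to 3.75). Against those 6 arrays alone Ccl2 (1.65) and Ccl3 (2.37) were still called. The part of Kupffer content in these results was not tested.

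The promoters of Cxcl1 and Cxcl2, both lowered by sulconazole, are shown because they hold an NF-kB element, read as GGGA, TT and CC with any 1 base between them, found in 4 of the 9 promoters available for the cytokine list (44.4%) and in 1.11% of all promoters on either strand. Capitals mark it, as GGGAATTTCC at positions -84 to -75 from the start of Cxcl1 (chr14:17479272-17479571, minus strand) and as GGGATTTCCC at -73 to -64 from that of Cxcl2 (chr14:17467206-17467505, minus strand). A match is a description of the sequence and was not tested for binding.
Cxcl1: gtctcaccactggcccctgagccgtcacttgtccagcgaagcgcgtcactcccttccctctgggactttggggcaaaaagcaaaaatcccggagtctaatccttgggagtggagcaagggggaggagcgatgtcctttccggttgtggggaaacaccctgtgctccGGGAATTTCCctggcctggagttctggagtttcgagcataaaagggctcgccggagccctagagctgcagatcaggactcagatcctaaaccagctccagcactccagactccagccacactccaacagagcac
Cxcl2: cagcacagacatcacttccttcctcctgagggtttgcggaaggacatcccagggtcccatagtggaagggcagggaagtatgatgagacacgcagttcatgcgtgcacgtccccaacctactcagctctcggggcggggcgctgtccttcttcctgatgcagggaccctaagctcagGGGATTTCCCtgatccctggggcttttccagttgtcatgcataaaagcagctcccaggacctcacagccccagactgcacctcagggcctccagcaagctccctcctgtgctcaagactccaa

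Itraconazole raised further inflammatory genes. Cxcl6 rose 6.57-fold and Ptgs2, the inducible cyclooxygenase, 6.76-fold, both the highest of 128 treatments. The itraconazole arrays were uneven in both: Ptgs2 read 3.93, 6.24 and 6.40 at 0.67 d and 4.71, 8.03 and 7.74 at 1 d against 2.96 to 4.66 in vehicle arrays, so that the 1a arrays were the lowest at each time. Cxcl6 read 4.90 and 6.07 in 2 arrays within the vehicle range of 4.24 to 7.93 and 8.33 to 9.22 in the other 4, and against the 6 vehicle arrays shared with sulconazole it was 2.26 and not called (adjusted p = 0.0113). Cd69, an activation antigen, read 7.63 to 8.22 in all 6 itraconazole arrays against 4.17 to 5.45, a 9.17-fold rise (3.20, SE 0.124, adjusted p = 9.29e-18). It rose 2.80-fold with ketoconazole and 1.74-fold with sulconazole, where the call was lost in 10 of 15 leave-out fits (0.61 to 1.06).

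Some lysosome genes rose. Of 23 lysosome and autophagy genes itraconazole raised 8 and lowered 0, sulconazole raised 7 and lowered 1, and ketoconazole raised 4 and lowered 2, with medians of 0.38, 0.30 and 0.11. In leave-out fits ketoconazole raised 2 to 4. Neu1, lysosomal sialidase, rose 2.43-fold with itraconazole (1.28, SE 0.101, adjusted p = 2.04e-11) and 2.14-fold with sulconazole (1.10, SE 0.138, adjusted p = 4.78e-05), which ranked 2 and 4 of 128. Its ketoconazole rise of 0.67 was 0.48 and not called without replicate 1. Asah1, acid ceramidase, rose 1.81-fold with sulconazole (0.86), the highest of 128 treatments, and 1.56-fold with itraconazole (0.64), where the call was lost in 1 of 8 leave-out fits. Rragd, a GTPase that couples lysosomes to mTORC1, rose 3.02-fold, 3.50-fold and 5.74-fold with itraconazole, ketoconazole and sulconazole. Gpnmb, a lysosomal glycoprotein of lipid-loaded cells, rose 1.84-fold with itraconazole and 1.55-fold with sulconazole, where the call was lost in 1 of 15 leave-out fits. Wipi1, an autophagosome protein, fell with ketoconazole (-0.92) and sulconazole (-0.63), the sulconazole call being lost in 3 of 15 leave-out fits (-0.78 to -0.45).

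Each drug lowered some genes of hepatocyte function. Of 21 secreted plasma proteins itraconazole lowered 12, sulconazole 7 and ketoconazole 5, with 9, 14 and 16 not called, and of 11 urea cycle and gluconeogenesis genes 7, 5 and 5, with 0 raised in either list. Apob, the structural protein of very low density lipoprotein, read 9.80, 9.98 and 9.73 at 0.67 d and 9.44, 9.64 and 9.51 at 1 d with itraconazole against 12.09 to 12.58 in vehicle arrays, a 6.34-fold fall (-2.67, SE 0.0799, adjusted p = 1.48e-20). Sulconazole lowered Apob 7.34-fold and ketoconazole 2.78-fold, with -0.82 for ketoconazole without replicate 1. Cps1, the entry enzyme of the urea cycle, fell 7.74-fold with itraconazole, 2.91-fold with ketoconazole and 2.98-fold with sulconazole. Baat, which conjugates bile acids to amino acids, fell 8.45-fold, 5.89-fold and 14.1-fold, and it belongs to 14 bile acid genes of which itraconazole lowered 6, ketoconazole 4 and sulconazole 2, and ketoconazole lowered 2 to 4 in leave-out fits. Cyp7a1, the first enzyme of bile acid synthesis, was low in all arrays and was not called with any drug (-0.15, -0.12 and -0.10).

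Hnf4a, the transcription factor that maintains hepatocyte gene expression, fell with all 3 drugs. With ketoconazole it read 7.02, 7.76 and 9.65 at 0.67 d and 6.78, 9.21 and 9.67 at 1 d, against 9.90 to 10.34 in vehicle arrays, so that every array was lower but by very different amounts. The fall was 3.28-fold (-1.71, SE 0.301, adjusted p = 7.3e-05), and -0.99 without replicate 1. It was 2.79-fold with itraconazole (-1.48, SE 0.0844, adjusted p = 2.69e-14) and 2.45-fold with sulconazole (-1.29, SE 0.153, adjusted p = 3.2e-05). Of the 12 measured hepatocyte markers itraconazole lowered 4, sulconazole 3 and ketoconazole 2, with medians of -0.50, -0.29 and -0.01.

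Ketoconazole and sulconazole, whose vehicle arrays are distinct, were called in the same direction for 1190 genes, 500 higher and 690 lower, and in opposite directions for 0. The shared genes made up 56.1% of the ketoconazole calls and 63.2% of the sulconazole calls. Of the 1190, 828 were called in that direction with itraconazole too, 322 higher and 506 lower. Itraconazole was called opposite to ketoconazole in 8 genes and opposite to sulconazole in 10. The overlap with other treatments was not counted, so these shares do not mark a likeness particular to the imidazoles. Genes called in the same direction for all 3 drugs with the largest smallest change included, among those that rose, Klf4, a transcription factor of epithelial differentiation (2.58, 2.74 and 2.28 with itraconazole, ketoconazole and sulconazole), Rsad2, the antiviral protein viperin (2.36, 2.59 and 2.61), Bcat1, a cytosolic branched-chain aminotransferase (2.99, 2.21 and 2.66), and Sdcbp2 (2.75, 2.23 and 2.90). Among those that fell were Gna14, a G protein subunit (-3.29, -2.86 and -2.79), Tm4sf4 (-3.17, -2.73 and -3.53), Nrep (-2.83, -3.08 and -2.75) and Anks4b (-2.52, -2.83 and -2.60). Many treatments moved these genes. Over the 128 treatments the 4 that rose were called higher in 55 (Rsad2) to 78 (Klf4), and the 4 that fell were called lower in 77 (Anks4b) to 89 (Nrep).

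With sulconazole Shc4, an adaptor protein, rose 7.79-fold (2.96, SE 0.188, adjusted p = 4.08e-07), and Avil, an actin-binding protein, rose 5.98-fold (2.58), which like Mme, neprilysin (6.37-fold), and Igsf23 (6.52-fold) was the highest of 128 treatments. Hao1, the glycolate oxidase of peroxisomes, fell 17.2-fold with sulconazole (-4.11, SE 0.256, adjusted p = 4.04e-07), against 10.4-fold with itraconazole and 4.09-fold with ketoconazole. With itraconazole Selenbp1, a methanethiol oxidase, fell 11.7-fold (-3.55, SE 0.101, adjusted p = 6.47e-21), and Mbl2, a complement-activating lectin, fell 14.5-fold.

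Some large ketoconazole rises, such as those of Pim1 and Cldn4, were carried by few arrays. Pim1, a serine kinase, read 10.47, 8.49 and 5.37 at 0.67 d and 10.37, 6.76 and 5.74 at 1 d against 4.81 to 5.93 in vehicle arrays. It rose 6.53-fold (2.71, SE 0.519, adjusted p = 0.000183), and 1.43 on the log2 scale without replicate 1. Cldn4, a tight junction protein, read 9.91, 5.29 and 4.04 at 0.67 d and 10.13, 4.72 and 4.09 at 1 d, against 3.72 to 4.54 in vehicle arrays. Its change of 2.33 (5.02-fold) was 0.50 and not called without replicate 1. Cldn4 rose with itraconazole (4.08-fold) and sulconazole (3.01-fold) with all 6 arrays of each above their vehicle arrays. Scarb1, the HDL receptor, showed the same array pattern with ketoconazole: 10.53, 9.63 and 8.09 at 0.67 d and 10.86, 8.71 and 8.15 at 1 d against 8.09 to 9.04. Its change of 0.74 did not pass the p bound (adjusted p = 0.0362).

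Exposure time made little difference that the test could resolve. A gene whose effect at 1 d differed from that at 0.67 d, at the same bounds, was found once for itraconazole (0.00703% of genes). None was found for ketoconazole or sulconazole, where 0% were called. An unadjusted limma p under 0.05 was found for 750, 1075 and 574 of 14218 genes. With no time effect a share of 0.05 of the genes would pass that bound. The gene called for itraconazole was Ptprz1, a receptor tyrosine phosphatase. It read 4.76, 5.36 and 4.69 at 0.67 d and 7.11, 7.19 and 7.00 at 1 d with itraconazole, against 3.48 to 4.64 in vehicle arrays. Over both times its change of 2.07 was the highest of 128 treatments, and the effect at 1 d exceeded that at 0.67 d by 2.19 on the log2 scale.

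**Figure D5:**
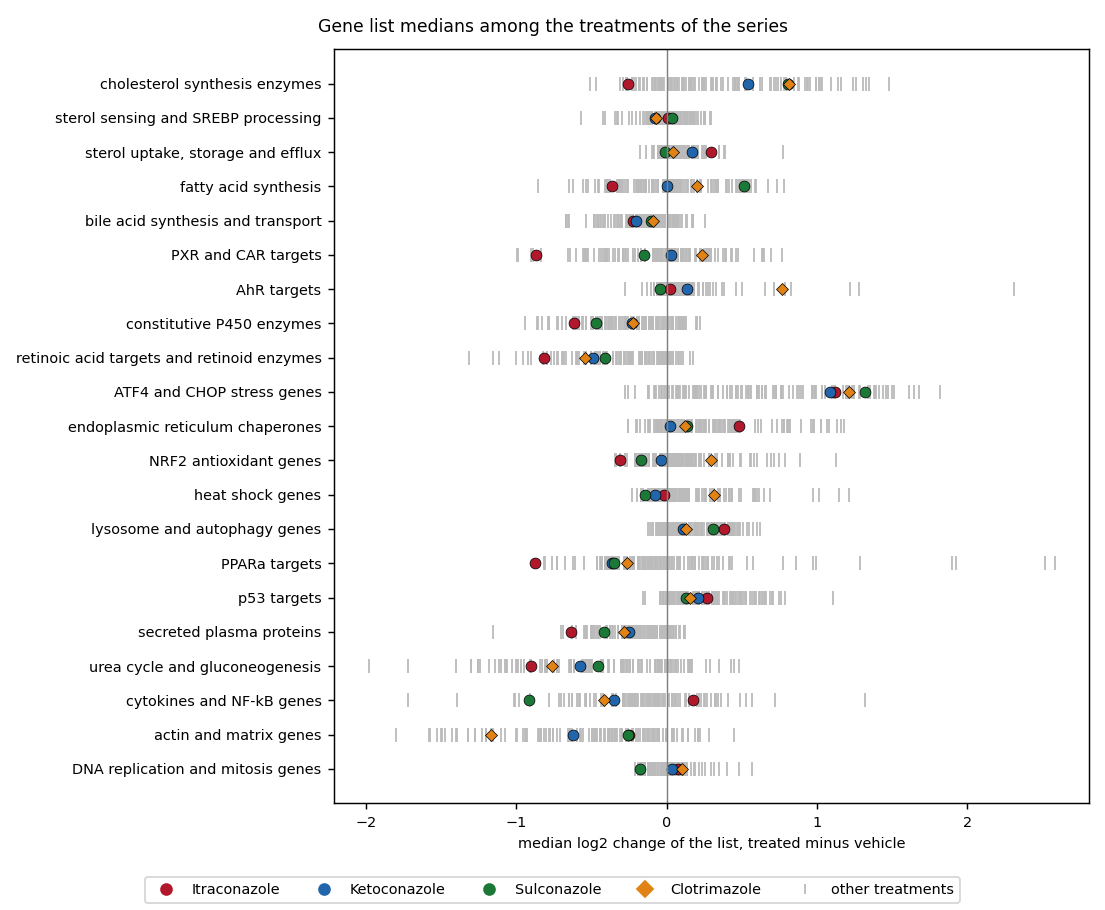
Median log2 change, treated minus vehicle (horizontal axis), of each gene list for itraconazole, ketoconazole, sulconazole and clotrimazole (coloured) among the 128 treatments (grey ticks). The itraconazole median of PPARa targets, -0.88, is the leftmost of its row.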

How the data were processed

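The deposited values are log2 expression values that the authors obtained by robust multi-array averaging (RMA, in a frozen form per the study's methods; version not given in the sources used here), for 31099 probe sets on 939 arrays. Array medians ran from 5.41 to 5.73. The number of arrays limits the precision. The platform annotation gave 1 symbol for 20832 probe sets, more than 1 for 436 and no symbol for 9831. Symbols were updated through RefSeq GRCr8 for 20764, and 68 kept the annotation's symbol. A gene was taken as the probe set with the highest mean over all arrays, giving 14218 genes. A gene not named here is not analysed here.

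Each drug was compared with its own vehicle arrays in limma 3.58.1 (R 4.3.3) with exposure time as a covariate, and the difference between times was tested as an interaction. The same bounds of adjusted p and fold applied throughout. Fits were tested on simulated data. Python 3.11.15 with pandas 2.3.3 and matplotlib 3.10.9 drew the tables and figures. The 95% intervals come from the fit.

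Named genes were, for each drug, the 10 largest called rises and falls, the 8 genes per direction called in all 3 drugs with the largest smallest change, up to 3 called members of each list with the largest change per direction, the 4 largest time differences and a list of key genes. Acaca, Acadm, Adgre1, Asah1, Asns, Csf1r, Cyp4a1, Fdft1, Lss, Nfkbia, Phgdh, Pmvk, Sc5d and Scarb1 fell outside that rule and were chosen after their values were seen. The members and gene lists were chosen with earlier results of these data known. Alternatives were another fold bound, another choice of probe set, a filter on low genes, other vehicle sets, batch and replicate blocks, single times and leaving out replicates. Extraction day as a block, and leaving out a replicate number at both times, were added after seeing the data.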

Additional observations from a re-analysis of the deposited data

Results flagged for a closer look

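Gpnmb had 1 vehicle array at 1 d, replicate 6 of the vehicle arrays used for ketoconazole and itraconazole, at 11.08 log2 units, far below the other 7 arrays of its group, which ran from 11.66 to 12.14. Its gap divided by the range of the group was 0.547, above the critical value of 0.526. This was 1 of 48 such tests, and chance passes about 1 group in 20.

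Ptprz1 differed between exposure times under itraconazole, with an effect at 1 d that exceeded that at 0.67 d by 2.19 on the log2 scale in the limma interaction test.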

How the results depend on the processing

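Over 157 genes and 3 drugs, 10328 of 11105 alternative values kept their side of the threshold, 626 lost the call and 146 gained it. Values called in neither fit count among the 10328, also where the sign changed. The alternative fits reuse the same treated arrays or a part of them, so the count is not an independent check. In 5 cases the sign changed and the main or the alternative value was called. The 5 were Abca1 with ketoconazole as the median of its probe sets (-0.207, adjusted p = 0.566 in limma), and Cyp3a2 (-1.06), Il1b (1.78), Adgre1 (3.14) and Csf1r (1.61) with sulconazole against all vehicle arrays of the first campaign. List medians moved by less than the spread in 1790 of 1914 cases.

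With a 2-fold bound 693 genes were called for itraconazole, 690 for ketoconazole, 631 for sulconazole and 359 for both imidazoles. At 1 d alone ketoconazole had 1403 calls and sulconazole 988, at 0.67 d alone sulconazole had 1171, and the calls shared by the imidazoles numbered 676 at 0.67 d and 476 at 1 d. On the 1 hybridization day that holds most ketoconazole arrays, 39 genes were called. Leaving out replicates gave 1703 to 1961 calls for itraconazole, 1315 to 2951 for ketoconazole, 1497 to 2023 for sulconazole and 905 to 1337 shared, the lowest ketoconazole count being that without replicate 1. The itraconazole time difference was called for 0 genes without the dimmest genes (a share of 0.3333) or against the 6 vehicle arrays shared with sulconazole, 2 with extraction day as a block and 4 against all vehicle arrays, where sulconazole had 1. Leave-out fits gave 0 to 2 for itraconazole, 0 to 1 for ketoconazole and 0 to 2 for sulconazole. The cause of these changes was not tested.

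With the replicate number as a block the counts were 1773 for itraconazole, 2270 for ketoconazole and 2017 for sulconazole. Deviations of same-numbered treated and vehicle arrays correlated above 0.1 in 5 of 6 sulconazole pairs, 1 of 6 ketoconazole pairs and 2 of 6 itraconazole pairs in each vehicle set, so the number was not taken as a pairing. For sulconazole the same-numbered correlations ran from 0.072 to 0.462, with means of 0.31 for same-numbered and -0.154 for other pairs. Deviations were centred within each group of arrays, so the second mean largely follows from the first. With the block 7 cytokine and NF-kB genes were lower with sulconazole in place of 5.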

Other observations

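Of 11 measured actin and matrix genes itraconazole lowered 4, ketoconazole 6 and sulconazole 2, with 0 raised and median log2 changes of -0.25, -0.62 and -0.26, beside -1.17 with clotrimazole. Of 15 DNA replication and mitosis genes itraconazole changed 0, ketoconazole raised 1 and lowered 1, and sulconazole raised 2 and lowered 1. The shares called over all genes were 12.9%, 14.9% and 13.2% with the drugs in that order. Of 9 stellate cell markers 0 were called with itraconazole and 1 was lower with each imidazole, and of 7 endothelial markers 2 were lower with sulconazole and 0 were called with the other drugs.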
